A study of Mus musculus with 8 samples.

Results

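Cells high in genes of the passage from G1 into S phase were examined within SN4741 cultures kept at 37°C, the permissive temperature. These cells were chosen by the share of their UMIs (unique molecular identifiers, each standing for a captured transcript) that came from 6 genes, Ccne1, Ccne2, Cdc6, Mcm5, Mcm6 and Gins2, and the top 10% of each library by this share are called members below. Among the 7882 cells kept at 37°C, 788 were members, 218, 160, 170 and 240 in replicates 1 to 4. The whole series holds 19125 barcodes in 8 libraries, of which 16015 passed the same filters. Members were compared within each library with the lower 50% of cells by the share, 3940 cells in all, called low-score cells. SN4741 is a mouse line cloned from embryonic substantia nigra and immortalized with a heat-sensitive SV40 T antigen driven by the tyrosine hydroxylase promoter, which all groups carry. The 37°C group, of 4 replicates, grew with 10% serum. The 39°C group, also of 4 replicates, was held at the non-permissive temperature with 0.5% serum for 48 hours, so that heat and serum withdrawal cannot be told apart. The labels do not say that replicates are separate cultures, so p-values measure the spread between these libraries, which may be technical.

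Entry into S phase turns on genes in a fixed order. Cyclin E, of which Ccne1 and Ccne2 encode the forms, activates Cdk2 at the end of G1. Cdc6 and Cdt1 load the MCM helicase, of which Mcm5 and Mcm6 are subunits, onto origins of replication, and Gins2 encodes a subunit of the GINS complex that helps to switch this helicase on. Most of these genes are targets of E2F factors, which the retinoblastoma protein holds back until late G1, and the large T antigen binds that protein as well as p53. Genes for mitosis are instead expressed from G2 onward, in part through a promoter element named the cell cycle genes homology region (CHR).

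The promoters of the chosen genes and of genes described later are shown because they differ in these elements. All are 300 bases from RefSeq (build GRCm38.p6), 250 before and 50 after a start of transcription, written along the strand of the gene. Capitals mark matches, on either strand, to the E2F letters TTTCCCGC, TTTCGCGC, TTTGCCGC or TTTGGCGC, or to the CHR letters TTTGAA. RefSeq windows were found for 4 of the 6 score genes, and the 3 with a match are printed. Mcm5 and Mcm6 each hold a pair of overlapping E2F matches on opposite strands, and Mcm6 has 3 matches in all.
Mcm5, chr8:75109259-75109558, plus strand: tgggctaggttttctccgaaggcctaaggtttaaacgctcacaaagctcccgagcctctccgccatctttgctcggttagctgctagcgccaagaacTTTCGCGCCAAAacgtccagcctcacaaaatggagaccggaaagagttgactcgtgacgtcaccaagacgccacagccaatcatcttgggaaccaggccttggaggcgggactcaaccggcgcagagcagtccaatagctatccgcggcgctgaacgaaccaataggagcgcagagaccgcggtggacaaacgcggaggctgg
Mcm6, chr1:128359656-128359955, minus strand: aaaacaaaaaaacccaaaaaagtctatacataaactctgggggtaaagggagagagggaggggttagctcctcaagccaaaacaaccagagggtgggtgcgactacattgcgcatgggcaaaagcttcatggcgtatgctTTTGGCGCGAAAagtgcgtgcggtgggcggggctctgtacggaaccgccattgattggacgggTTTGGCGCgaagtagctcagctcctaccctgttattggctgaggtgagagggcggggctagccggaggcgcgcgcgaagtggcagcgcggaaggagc
Cdc6, chr11:98907901-98908200, plus strand: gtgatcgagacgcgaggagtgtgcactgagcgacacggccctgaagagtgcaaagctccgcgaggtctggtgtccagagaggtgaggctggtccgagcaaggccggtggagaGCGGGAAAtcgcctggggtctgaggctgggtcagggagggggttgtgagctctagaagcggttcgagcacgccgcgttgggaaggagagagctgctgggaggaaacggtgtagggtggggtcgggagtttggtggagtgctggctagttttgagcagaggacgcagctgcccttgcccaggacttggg
The next 3 belong to genes of mitosis, namely the kinase Plk1, the kinetochore protein Cenpf and the anaphase activator Cdc20, and each holds 1 CHR match close to the start of transcription.
Plk1, chr7:122159185-122159484, plus strand: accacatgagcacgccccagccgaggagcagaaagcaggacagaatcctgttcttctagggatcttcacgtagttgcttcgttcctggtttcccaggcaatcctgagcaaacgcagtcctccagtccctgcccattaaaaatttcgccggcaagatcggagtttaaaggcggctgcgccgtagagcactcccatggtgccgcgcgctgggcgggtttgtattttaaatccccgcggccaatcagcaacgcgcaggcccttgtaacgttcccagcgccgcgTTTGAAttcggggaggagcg
Cenpf, chr1:189688037-189688336, minus strand: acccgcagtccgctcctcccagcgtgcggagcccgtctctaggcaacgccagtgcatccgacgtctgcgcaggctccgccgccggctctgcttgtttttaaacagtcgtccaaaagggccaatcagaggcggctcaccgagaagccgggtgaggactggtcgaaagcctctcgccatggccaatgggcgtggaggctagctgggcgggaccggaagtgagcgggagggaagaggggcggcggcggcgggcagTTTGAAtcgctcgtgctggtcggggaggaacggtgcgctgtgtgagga
Cdc20, chr4:118437294-118437593, minus strand: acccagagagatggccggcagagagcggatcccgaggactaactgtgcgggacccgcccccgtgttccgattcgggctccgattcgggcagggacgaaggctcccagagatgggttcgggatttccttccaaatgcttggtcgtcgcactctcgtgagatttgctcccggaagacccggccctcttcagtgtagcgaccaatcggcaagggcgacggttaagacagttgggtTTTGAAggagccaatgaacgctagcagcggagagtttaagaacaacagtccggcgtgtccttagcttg

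The score behind the choice is given as a description, without a test. Members carried a median of 12, 16, 16.5 and 10 score UMIs per cell in replicates 1 to 4, against 1, 2, 2 and 1 in the low-score cells. The lowest share of a member was 0.0788%, 0.0872%, 0.0862% and 0.0900% of UMIs in the 4 libraries. The limit cuts a continuous range rather than a separate group of cells. In replicate 1, the 10 cells just inside it had a mean share of 0.0791% and the 10 just outside 0.0784%, and in replicate 4 these were 0.0904% and 0.0895%. Transcripts of Mcm6 made up 34.8 to 37.3% of the score UMIs of members and those of Ccne1 6.58 to 7.68%, so the MCM genes weighed most in the choice. At least 4 of the 6 genes were detected in 168 of 218, 145 of 160, 146 of 170 and 180 of 240 members. Which cells were members depended on how the score was taken. With every cell thinned to 5000 UMIs before the choice, 151 of 218, 102 of 160, 104 of 170 and 167 of 240 members were chosen again. With the mean of scaled log values over the 6 genes as the score, 155, 125, 126 and 166 were.

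Depth per cell differed less between the classes than the size of their summed profiles. The 37°C libraries held 29116884 to 33652656 UMIs over all barcodes. The summed profiles of members held 2468815 to 2754598 and those of the low-score cells 12822855 to 14283132. Median UMIs per cell were 11575, 14832, 14563 and 9245 in members and 11695, 14903, 15413 and 10763 in the low-score cells, lower in members in 4 of 4 libraries. The median mitochondrial share of cells was 7.40% ± 0.17 in members and 7.68% ± 0.17 in the low-score cells (SD, n = 4), and that of the nuclear RNA Malat1 1.72% ± 0.08 and 2.26% ± 0.33. These differences went the same way in 4 of 4 libraries, with a two-sided exact sign-flip permutation p of 0.125, the smallest that 4 pairs allow. With every cell thinned to 5000 UMIs, members had a median of 2183 ± 22.5 genes and the low-score cells 2155 ± 19.4 (SD, n = 4; exact permutation p = 0.125). No more than 2 barcodes occurred in both of any pair of 37°C libraries.

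Whether the score genes rise together was checked by leaving each out of the choice in turn and measuring it in cells chosen by the other 5. This cannot tell cells at the boundary of G1 and S from cells already in S. All 6 left-out genes were higher in the chosen cells than in the low-score cells, in 4 of 4 libraries. Cdc6 was at 84.9, 83.3, 72.6 and 76.2 CPM (counts per 1000000) in the chosen cells and at 7.31, 6.19, 8.55 and 8.24 CPM in the low-score cells, a log2 fold change of 3.38 ± 0.09 (SE; adjusted p = 5.37e-51). Ccne1 was at 44.6, 61.2, 57.0 and 43.3 CPM against 3.58, 6.62, 5.16 and 7.64 CPM, a log2 fold change of 3.17 ± 0.12 (adjusted p = 1.39e-33). For neither gene did the classes come close to each other. Ccne2 rose by 2.91 ± 0.09, Mcm5 by 1.81 ± 0.06, Gins2 by 1.69 ± 0.06 and Mcm6 by 1.57 ± 0.04 on the log2 scale. The rises of the cyclin E genes and Cdc6 were thus above those of Mcm5, Mcm6 and Gins2, a difference between genes that was not itself tested.

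**Figure D1:**
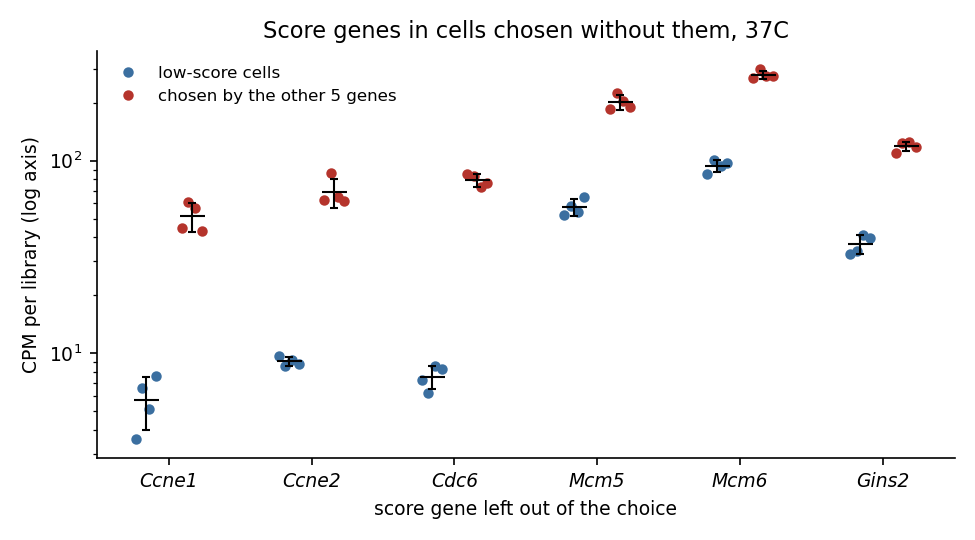
CPM (log axis) of each score gene in each 37°C library, in cells chosen by the other 5 score genes (red) and in the low-score cells by the same share (blue), with the mean and SD over 4 libraries in black. For Cdc6 the red points lie between 72.6 and 84.9 CPM and the blue points between 6.19 and 8.55 CPM.

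Cell cycle phases were assigned with the score genes taken out of the list of S genes. Members were assigned to S in 88.1%, 96.3%, 94.1% and 93.3% of cells in replicates 1 to 4, and the low-score cells in 6.23%, 5.13%, 4.11% and 7.42%. The low-score cells were a mixture, with 51.0% ± 4.33 of them in G1 and 43.3% ± 4.08 in G2M (SD, n = 4), where members had 5.10% ± 3.26 and 1.96% ± 0.58. Each of these differences held in 4 of 4 libraries (exact permutation p = 0.125 for each). With cells thinned to 5000 UMIs, the share of members in S was 88.1% ± 2.85. Most members were thus assigned to S and few to G1, and the calls do not place them at the boundary itself. Since the comparison group holds cells assigned to G1 and to G2M, a difference from the low-score cells can come from either. These cells are divided further below by their UMIs from genes of mitosis.

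Across 12038 genes tested outside the score, 947 were called higher in members (7.87%) and 1009 lower (8.38%), where a call needs an adjusted p under 0.05 together with a log2 change larger than 0.5. With as many low-score cells as members in each library, 896 genes were called higher and 822 lower. The median over all tested genes in the main comparison was -0.02 on the log2 scale. Ung, a uracil-DNA glycosylase that removes uracil from new DNA (chr5:114130386-114139323, mm10), was at 40.5, 56.3, 49.0 and 44.4 CPM in members and 4.71, 5.93, 5.35 and 7.21 CPM in the low-score cells. Its log2 fold change of 3.03 ± 0.11 (adjusted p = 2.38e-46) led those with at least 30 CPM in the higher class and 1 direction in 4 of 4 libraries. The next were Mybl2 (2.43 ± 0.11), a MYB factor of the late cell cycle, Lhx2 (2.33 ± 0.12), a LIM homeobox factor, Uhrf1 (2.19 ± 0.06), which brings the DNA methyltransferase Dnmt1 to new DNA, and Slfn9 (2.15 ± 0.06), of the Schlafen family. Rises of 1.85 to 2.09 were found for the nuclease Dna2, Tcf19, the clamp-loader subunit Dscc1, Chaf1b, the checkpoint mediator Clspn, the sliding clamp Pcna and Donson.

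Origin licensing, the loading of MCM helicases, was represented by 14 genes, of which 11 were called higher and 0 lower, with a median log2 fold change of 1.26. Mcm3 was at 416.8, 445.3, 432.3 and 443.2 CPM in members and 118.4, 119.9, 127.8 and 138.7 CPM in the low-score cells, a log2 fold change of 1.78 ± 0.04 (adjusted p = 2.47e-66). Of the other helicase subunits in this list, which leaves out the score genes, Mcm4 rose by 1.55, Mcm2 by 1.41 and Mcm7 by 1.29. Cdt1, which loads the helicase, rose by 1.36 ± 0.07, and Gmnn, whose product geminin inhibits Cdt1, by 1.43 ± 0.05. Of the origin recognition complex, Orc1, Orc2 and Orc6 were called higher, while the values of Orc3, Orc4 and Orc5 were 0.21, -0.07 and 0.11 on the log2 scale. The 11 called genes had classes that did not overlap across libraries, as had 34.7% of all tested genes.

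Origin firing genes, which turn loaded helicases into moving forks, were called higher in 11 of 12 (median 1.04). Cdc45, part of the active helicase, was at 62.1, 69.0, 62.8 and 62.7 CPM in members and 20.3, 21.4, 22.8 and 22.2 CPM in the low-score cells (log2 fold change 1.56 ± 0.08). The exception was Dbf4, the activating subunit of the Cdc7 kinase, at 44.3 ± 5.35 CPM in members and 105.3 ± 11.8 CPM in the low-score cells (SD, n = 4; log2 fold change -1.24 ± 0.07, adjusted p = 6.85e-31), although Cdc7 itself was called higher by 1.06. All 26 replication fork genes were called higher, from 0.58 for Chtf18 to 2.01 for Dscc1, with a median of 1.15. Pcna was at 112.3, 122.5, 112.2 and 108.3 CPM in members and 32.4, 34.0, 28.6 and 31.0 CPM in the low-score cells, a rise of 1.85 ± 0.06. Polymerase alpha with its primase (Pola1, Pola2, Prim1, Prim2), polymerases delta and epsilon, the clamp loader Rfc1 to Rfc5 and the ligase Lig1 all belong to this list.

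Supply of nucleotides and of chromatin followed the same direction. Among 17 genes of nucleotide supply 15 were called higher and 0 lower (median 0.94), among them the deoxycytidine kinase Dck (1.67 ± 0.09) and the dUTPase Dut (1.54 ± 0.04). Thymidylate synthase, Tyms, rose by 1.36 ± 0.05, and Rrm2, the regulated subunit of ribonucleotide reductase, by 1.05 ± 0.05. Of 13 genes for chromatin assembly and the copying of DNA methylation, 12 were called higher, and the last, Npat, was just under the limit at 0.50. Uhrf1 was at 140.2, 140.3, 148.3 and 152.6 CPM in members and 28.1, 31.2, 34.3 and 33.8 CPM in the low-score cells. Slbp, which binds the stem-loop of histone mRNAs, rose by 1.56 ± 0.05, from 70.2 ± 5.31 to 206.6 ± 10.996 CPM (SD, n = 4). In the list of S-phase checkpoint and repair, 20 of 24 were called higher and 0 lower (median 1.17), among them Rmi2 (2.28 ± 0.18), the exonuclease Exo1 (1.79 ± 0.09) and the replication-coupled ubiquitin ligase adaptor Dtl (1.72 ± 0.07). Values for Atr and Fancd2 were near 0, at -0.11 and -0.07.

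**Figure D2:**
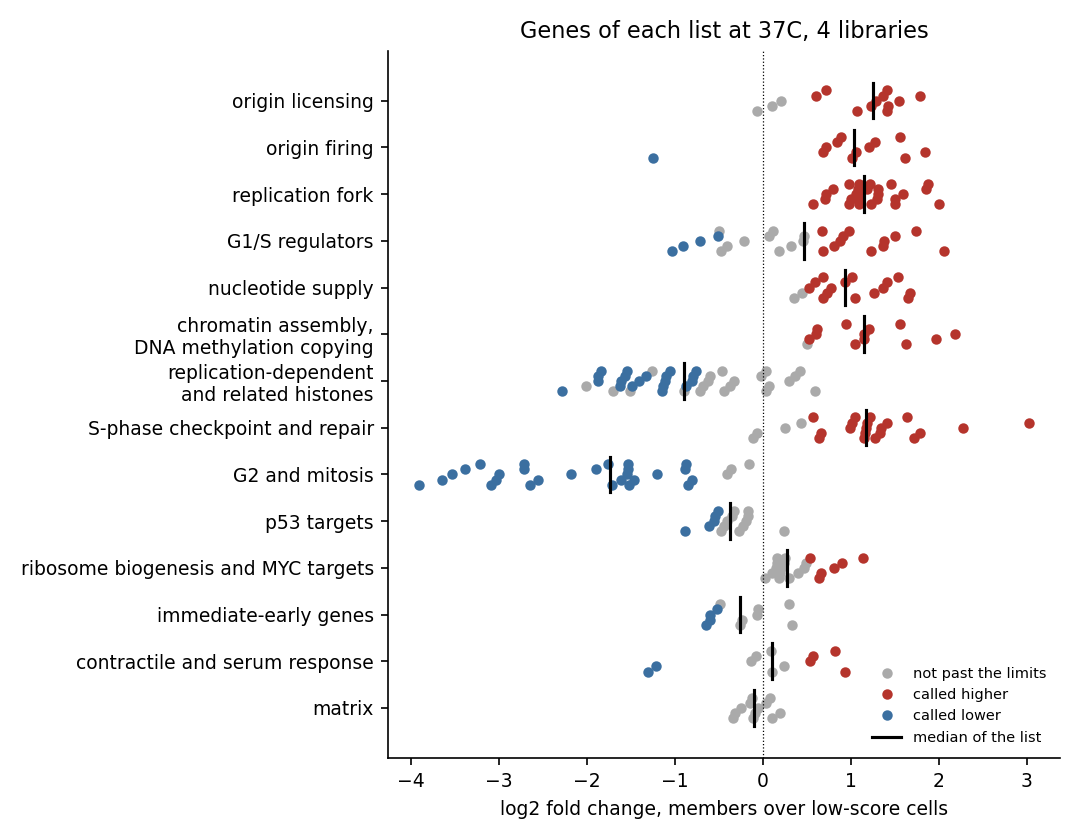
Log2 fold change of members over the low-score cells at 37°C for each tested gene of the 14 lists with at least 10 tested genes, 1 point a gene, coloured by call, with the list median as a black bar. All 26 replication fork genes lie to the right of 0 and all 30 genes of G2 and mitosis to the left.

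Regulators of the G1/S transition moved in both directions, with 12 of 26 called higher and 4 lower (median 0.47). E2f1, an activating E2F, was at 102.2, 109.5, 92.1 and 120.1 CPM in members and 30.05, 26.7, 32.4 and 36.9 CPM in the low-score cells, a rise of 1.75 ± 0.07 (adjusted p = 2.25e-44). The repressors E2f7 and E2f8 rose as well, by 1.38 ± 0.08 and 1.503 ± 0.12, and E2f2 by 2.06 ± 0.30 at low levels of 5.72 and 1.36 CPM. Cdk2, the kinase partner of cyclin E, rose by 1.37 ± 0.11, and Skp2, which marks the inhibitor p27 for destruction, by 1.23 ± 0.08. Cdkn1b, which encodes p27, fell by 0.90 ± 0.08 on the log2 scale, from 70.0 ± 3.87 to 37.4 ± 5.03 CPM (SD, n = 4), and Cdkn2d, an inhibitor of the cyclin D kinases, fell by 1.03 ± 0.09. Cyclin D1, Ccnd1, was at 524.2, 517.8, 476.1 and 519.4 CPM in members and 513.8, 457.9, 469.7 and 499.6 CPM in the low-score cells, ranges that overlap (log2 fold change 0.07 ± 0.03, adjusted p = 0.069). The 4 called lower were Cdkn2d, Cdkn1b, E2f5 and Ccnd2.

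The p53 targets were lower in members by small amounts, with 5 of 16 called lower and 0 higher (median -0.37). Those called were Trp53inp1 (-0.88 ± 0.06), Sesn2, Perp, Btg2 and Mdm2. The calls of Perp and Btg2, just past the limit at -0.55 and -0.54, were lost in 4 and 5 of 21 alternative settings, and without replicate 2 the count of p53 targets called lower was 2. Cdkn1a, which encodes the CDK inhibitor p21, was at 979.3, 901.1, 1005.9 and 1035.5 CPM in members and 1474.4, 1306.2, 1298.6 and 1377.8 CPM in the low-score cells. The classes do not overlap, but its log2 fold change of -0.48 ± 0.03 (adjusted p = 5.88e-31) stayed under the limit of 0.5 in size, which it passed without replicate 3 (-0.51) and with library totals in place of TMM scaling (-0.502). The T antigen was not part of the mouse reference, and its transcripts were not analysed here.

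Genes of G2 and mitosis were called lower in 27 of 30, with a median of -1.74. Plk1 was at 5.95, 1.97, 4.02 and 4.88 CPM in members and 52.99, 68.7, 64.1 and 69.2 CPM in the low-score cells, a log2 fold change of -3.91 ± 0.14 (adjusted p = 7.43e-47). Cenpa, Cenpf and Hmmr followed, at -3.64, -3.53 and -3.38. Cyclin B1, Ccnb1, was at 21.2, 13.0, 20.1 and 17.5 CPM against 97.6, 120.5, 117.5 and 116.4 CPM (-2.64 ± 0.09), and Cdc20 at 14.1, 9.85, 15.3 and 13.0 CPM against 92.3, 135.4, 134.0 and 127.7 CPM (-3.21 ± 0.09). The 3 genes under the limit were Top2a (-0.41), Ccnf (-0.36) and Cdk1 (-0.15). Cyclin A2, Ccna2, and Mki67 were called lower by smaller amounts, at -0.88 ± 0.06 and -0.84 ± 0.04.

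Against the mixed low-score cells, histone genes went the opposite way from most other genes of S phase. As a list they did not do so against the part of these cells poor in mitotic UMIs, described further below. Of 67 listed genes 41 were tested, and 20 were called lower and 0 higher (median -0.89). The summed profiles of low-score cells held 12822855 to 14283132 UMIs, more than those of members, so genes low in members could pass the count filter through the low-score cells, and the count and median do not stand for all histones. In sums of cells thinned to 5000 UMIs 12 of 20 tested were called lower. The mRNAs of most of these genes end in a stem-loop without a poly(A) tail, so that a 3′ poly(A) kit captures them incompletely. Hist1h1b, a linker histone, was at 140.2, 91.4, 100.8 and 120.5 CPM in members and 195.1, 179.3, 182.3 and 205.5 CPM in the low-score cells (log2 fold change -0.75 ± 0.05). Hist1h2ap, at -1.14 ± 0.09, had 30.3 ± 10.8 and 66.9 ± 24.1 CPM (SD, n = 4), and the near-identical histone genes can share reads. Both lost their calls when the score was the mean of scaled log values over the 6 genes, at -0.19 for Hist1h1b and -0.39 for Hist1h2ap.

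Where along the score these lists change was described by ordering the cells of each 37°C library by the share and cutting the order into 20 bins of 5%. The summed level of the licensing list was 500.9 ± 39.6 CPM in the lowest bin and 1906 ± 97.7 CPM in the highest (SD, n = 4), which was its largest value. Histones were instead largest in the 11th bin, at 941.7 ± 90.1 CPM, and lowest in the highest bin, at 312.4 ± 72.6 CPM. For G2 and mitosis the largest mean, 6167 ± 599.4 CPM, was in the fourth bin, and the highest bin had 1703 ± 41.7 CPM. Median UMIs also varied, from 9903 ± 1477 in the lowest bin to 14422 ± 2752 in the 16th and 11885 ± 2158 in the highest. The part of depth in this order was not tested.

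**Figure D3:**
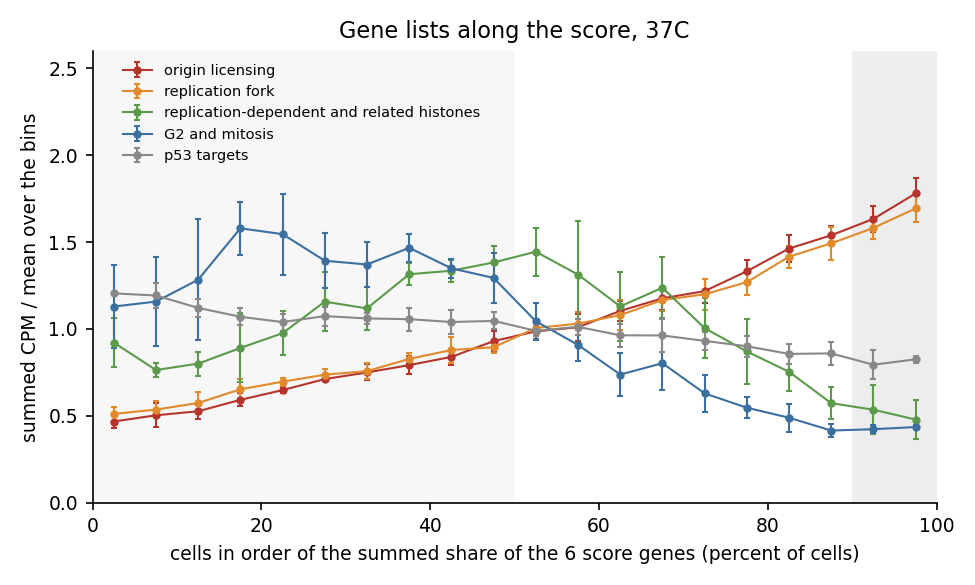
Summed CPM of 5 gene lists in 20 bins of cells ordered by the share of the 6 score genes, divided by the mean over the bins, as the mean and SD of the 4 libraries at 37°C. Grey areas mark the low-score cells and the members. The licensing and fork lists increase to the last bin, whereas the histones are largest in the 11th bin and G2 and mitosis in the fourth.

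Levels of other programmes were followed with lists of ribosome biogenesis, serum response and cell identity. Ribosome biogenesis and MYC target genes were called higher in 6 of 20 and lower in 0 (median 0.28), with the spermidine synthase Srm at 1.14 ± 0.06 and the nucleolar genes Nop56, Nolc1 and Ncl at 0.90, 0.81 and 0.66. Myc itself was at 20.3 ± 1.62 CPM against 17.7 ± 2.25 CPM (SD, n = 4), a log2 difference of 0.19 ± 0.11 (adjusted p = 0.164). Immediate-early genes were called lower in 4 of 11 (median -0.25), namely Fos, which was lower in 3 of 4 libraries, and Junb, Ier3 and Egr1, at -0.64 to -0.52, and contractile and serum response genes in 2 of 11, the smooth muscle genes Tagln (-1.30 ± 0.08) and Acta2 (-1.21 ± 0.06), against 4 called higher, among them Ankrd1 (0.93 ± 0.05) and Ctgf (0.83 ± 0.09). Without replicate 1, Fos (-0.30), Egr1 (-0.45) and Ier3 (-0.498) lost their calls and 1 of the immediate-early genes was left, and without replicate 3, Fos (-0.41) and Egr1 (-0.495) did and 2 were left. Fos was not called without the library block either (adjusted p = 0.105). Over all 21 alternatives, Egr1 lost its call in 7, Fos in 6, Ier3 in 4 and Junb in 2. Without replicate 3, 2 of the contractile and serum response genes were called higher. None of 12 tested matrix genes was called, with values from -0.33 to 0.19 and adjusted p under 0.05 for 5 of them.

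Among neural precursor markers 4 of 8 were tested. Nestin, Nes, an intermediate filament of neural stem cells, was at 577.4, 565.4, 583.9 and 676.9 CPM in members and 403.3, 347.7, 329.6 and 469.2 CPM in the low-score cells, a rise of 0.64 ± 0.03 (adjusted p = 3.96e-33) that fell under the limit, at 0.41, against all other cells. Sox9 was lower, at 2.95 and 9.50 CPM (-1.68 ± 0.23), while Sox2 (-0.34) and Vim (-0.16) were under the limit. Of the neuron markers 3 of 8 were tested and 0 called, with Stmn2 at -0.48 and Map2 at 0.43. Stmn2 passed the limit in 7 of 21 alternatives, among them without replicate 2 (-0.53) and replicate 3 (-0.59), and Map2 in 2. Of the glial markers 3 of 8 were tested and 1 was called lower, Aldh1l1, at 1.72 and 5.10 CPM. Of the 7 blood and endothelial markers 2 were tested, of which Cd68 was at 9.31 and 19.4 CPM, and Hba-a1, at 0.578 CPM in members, rests on too few UMIs to give a fold. The summed level of this list was 5.91 to 14.1 CPM in members and 19.8 to 23.5 CPM in the low-score cells. The part of other cell types in these results was not tested.

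Members were also compared with the third of the low-score cells that had the fewest UMIs from genes of G2 and mitosis. A further comparison used the third that had the most. Whether the first of these lies before S phase was not tested. The G2 and mitosis genes chose these comparison cells and were left out. Median UMIs of the comparison cells were 9842 to 13486 in the first and 12285 to 17979 in the second. Against cells poor in these UMIs, 1422 of 11091 genes (12.8%) were called higher in members and 1267 lower (11.4%). Against cells rich in them, 943 of 11152 (8.46%) were called higher and 1005 lower (9.01%). Both comparisons use the same members, so they are not independent.

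Several genes were higher in members than in either group of comparison cells. Ung was at 47.6 ± 6.79 CPM in members against 8.43 ± 3.17 CPM in the cells poor in mitotic UMIs and 1.35 ± 0.73 CPM in those rich in them, log2 fold changes of 2.49 ± 0.14 and 5.07 ± 0.18. E2f1 gave 1.59 ± 0.09 and 2.02 ± 0.08, Cdt1 1.29 ± 0.08 and 1.91 ± 0.09, and Mcm2 1.34 ± 0.06 and 1.70 ± 0.06. These early genes thus differed from both groups of comparison cells by more than the spread between libraries. Both groups were taken from cells low in the score, so genes that go with the score genes are lower there by that choice. Of the 26 fork genes 26 were called higher in the first comparison and 22 in the second, and of the 14 licensing genes 11 and 10.

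A second set of genes was far above the cells poor in mitotic UMIs but near or below those rich in them. Fbxo5, which encodes an inhibitor of the anaphase-promoting complex, was at 71.8, 84.8, 67.7 and 78.0 CPM in members and 2.34, 2.95, 3.02 and 2.69 CPM in the former (4.76 ± 0.14), whereas its value against the latter was -0.28 ± 0.07. Rrm2 gave 2.92 ± 0.09 and 0.30 ± 0.05, the latter under the limit in size. Of 18 histone genes tested against the first cells 5 were called higher and 7 lower (median 0.03), and of 33 tested against the second 1 was called higher and 25 lower (median -1.63). The histone genes Hist1h1b and Hist1h2ap, which were followed by name, turned direction, with Hist1h1b at 2.86 ± 0.09 against the first cells and -1.70 ± 0.05 against the second, and Hist1h2ap at 2.64 ± 0.16 and -2.11 ± 0.08. For Hist1h1b this corresponds to 113.4 ± 21.7 CPM in members, 15.6 ± 1.87 CPM in the cells poor in mitotic UMIs and 363.9 ± 40.2 CPM in those rich in them (SD, n = 4). Dbf4 was called lower against the second cells, at -2.16 ± 0.07, and gave 0.38 ± 0.09 against the first. Since UMIs of mitosis chose these cells, genes that go with them differ by that choice too.

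The largest rises over the cells poor in mitotic UMIs were Mybl2 (6.22 ± 0.25), the cohesin acetyltransferase Esco2 (5.14 ± 0.17), the PCNA-binding factor Pclaf (5.08 ± 0.10), the kinase Pbk (4.89 ± 0.16) and Fbxo5. Mybl2 was at 0.23, 0, 0.70 and 0.90 CPM in those cells, so its fold rests on very few UMIs and its first rank is not firm. Among the largest falls were the histone demethylase Kdm5b (-2.98 ± 0.14), the secreted lysophospholipase Enpp2, also named autotaxin (-2.95 ± 0.19), Pla2g7 (-2.72 ± 0.15) and Prg4 (-2.24 ± 0.11). Enpp2 was at 5.21, 2.76, 4.02 and 3.27 CPM in members and at 25.7, 44.3, 27.9 and 22.8 CPM in these cells, and the classes did not overlap for any of these 4. Over the cells rich in mitotic UMIs the largest rises were Ung, Lhx2 (2.82 ± 0.15), the MYC-responsive Cdca7 (2.22 ± 0.12), Dna2 (2.09 ± 0.12) and E2f1. The largest falls were Sapcd2, Prr11, Aspm, Gas2l3 and the kinesin Kif2c, at -4.45 to -3.66. Mitotic UMIs chose both groups of comparison cells, so any of these rises and falls that go with such UMIs follow from that choice too. Among inhibitors, Cdkn1b was lower than in either group of comparison cells, at -0.68 ± 0.09 and -1.28 ± 0.08, and Cdkn1a gave -0.62 ± 0.03 and -0.37 ± 0.03. Ccnd1 had -0.04 ± 0.04 and 0.21 ± 0.04, neither past the limit in size.

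**Figure D4:**
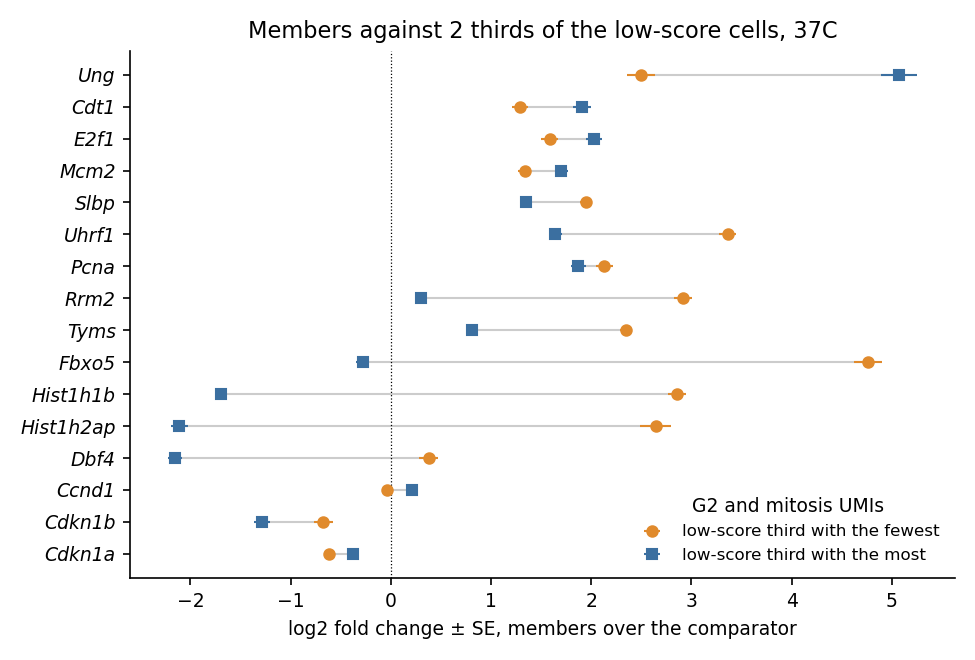
Log2 fold change with its SE for 16 genes in members against the third of low-score cells with the fewest UMIs of G2 and mitosis genes (orange circles) and the third with the most (blue squares), at 37°C. Ung, Cdt1, E2f1, Mcm2, Slbp, Uhrf1 and Pcna lie to the right of 0 in both, while Hist1h1b and Hist1h2ap lie on opposite sides.

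Members also varied among themselves. When the members of each library were split at the middle by the part of their score UMIs that came from the cyclin E genes, the upper group had a median part of 20 to 25% and the other group 0 to 8.33%. Of 9900 genes tested, 99 were called higher in the cyclin E-led members (1%) and 21 lower (0.212%). Genes of G2 and mitosis were called higher in 21 of 29 and lower in 0 (median 0.73), and the largest rises were Hist1h2ap (2.12 ± 0.20), Fbxo5 (1.49 ± 0.12), Hist1h1b (1.24 ± 0.12), Ccna2 (1.18 ± 0.13) and Cdca2 (1.17 ± 0.19). Ccna2 was at 79.3, 89.1, 74.0 and 76.2 CPM against 33.1, 25.7, 42.7 and 38.7 CPM. The licensing and firing lists had 0 genes called in either direction, with medians of 0.05 and 0.17. Of the falls, the largest were Klhl24 (-0.79 ± 0.17), whose groups overlapped across libraries, and the mitochondrial kinase Pink1 (-0.78 ± 0.18). Median UMIs were 12674, 15846, 14555 and 9827 in the cyclin E-led members and 10870, 12881, 14570 and 8824 in the others, and with cells split and summed after thinning to 5000 UMIs the calls were 24 higher and 0 lower, with 5 of 26 genes of G2 and mitosis called higher (median 0.58). Mki67 (0.86 ± 0.12), Top2a (0.64 ± 0.09), Fbxo5 (0.87 ± 0.19), Hist1h1b (0.83 ± 0.16) and Hist1h2ap (1.70 ± 0.32) were past the limits in the thinned cells too, though Fbxo5 and Hist1h1b were higher in 3 of 4 libraries there. Without replicate 3 the counts were 46 and 8, without replicate 1 or replicate 4 the lower count was 13, and without the library block they were 75 and 6.

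The same rule at 39°C, in libraries that did not enter the choice at 37°C, gave 813 members. Few of these cells would be members at 37°C, since 0.53% to 1.17% of cells in a 39°C library reached the mean limit of the 37°C libraries (0.0855%), against 7.51 to 11.9% at 37°C. In 2 of the 39°C libraries at least 50% of cells held no score UMI, so that their low-score cells were all at 0, and in replicate 4, where this share was 52.0%, ties set which of them were taken. Of 11867 genes, 1299 (10.9%) were called higher in these members and 754 (6.35%) lower. Licensing genes were called higher in 10 of 14 and fork genes in 26 of 26. Genes of G2 and mitosis, called lower in 27 of 30 at 37°C, were called higher in 29 of 30 at 39°C (median 1.83).

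The difference between the temperatures was tested itself, for 11 chosen genes and as a count. Of 11987 genes the contrast was higher at 39°C for 678 (5.66%) and lower for 219 (1.83%). Mki67 had a log2 fold change of -0.84 ± 0.04 at 37°C and 3.79 ± 0.12 at 39°C, a difference of 4.62 ± 0.13 (adjusted p = 3.84e-35), with 295.1 CPM in the low-score cells at 37°C and 5.14 CPM at 39°C. Its level in members was 164.5 and 72.4 CPM. Ccnb1 differed by 4.22 ± 0.21, from -2.64 to 1.58, and Top2a by 3.26 ± 0.07. Among early genes Uhrf1 differed by 1.83 ± 0.14, from 2.19 to 4.03, and Mcm2 by 0.86 ± 0.09, whereas the differences of Pcna (0.43 ± 0.10), Rrm2 (-0.28 ± 0.08) and Ccnd1 (-0.43 ± 0.05) had adjusted p under 0.05 but were under 0.5 in size. Without replicate 3 the difference of Pcna was 0.55 (adjusted p = 0.000971), past both limits. For Slbp, E2f1 and Cdkn1a the differences were 0.17 ± 0.08, -0.13 ± 0.11 and -0.01 ± 0.04 (adjusted p = 0.140, 0.513 and 0.935).

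**Figure D5:**
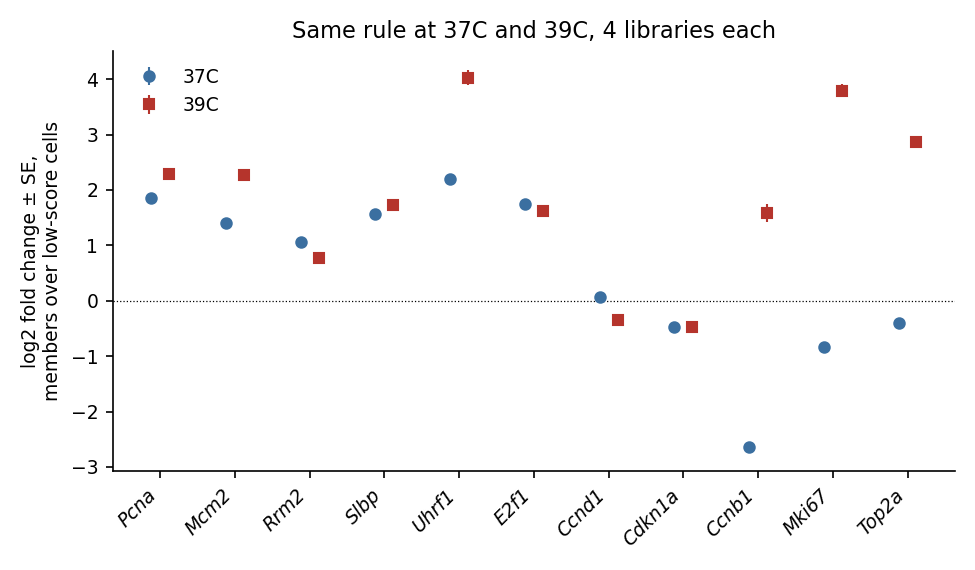
Log2 fold change with its SE of 11 genes in members over the low-score cells of the same libraries, at 37°C (blue circles) and at 39°C (red squares), 4 libraries each. Ccnb1, Mki67 and Top2a are below 0 at 37°C and above 0 at 39°C, while E2f1, Slbp and Cdkn1a lie close together.

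Promoter elements were counted as a description over the RefSeq windows, of which 9254 of 12038 tested genes had at least 1. The E2F letters were held by 12.3% of 721 genes called higher in members, 2.75% of 764 called lower and 4.84% of all tested genes with a window, against 2.26% of all 32851 windows. Among licensing genes 6 of 12 held a match and among fork genes 8 of 21. The CHR letters were in 18 of 25 genes of G2 and mitosis (72.0%), in 20.9% of genes called lower, in 13.2% of those called higher and in 13.9% of all tested genes, against 17.9% of all windows. A gene was counted if any of its windows held a match, so rates over genes and over windows are unlike measures. No match was found in the windows of Ccne1, Ung or Pcna, which says only that these letters are not in those windows.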

How the data were processed

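The authors captured single cells with a 3′ droplet kit and deposited UMI counts per gene and barcode, unnormalized, for 8 libraries. The submitters' processing notes name Cell Ranger 3.0.1 and mm10. The count tables held 31053 genes. Cells with at most 15% mitochondrial UMIs, 200 to 6000 genes and at least 5000 UMIs were kept, and at 37°C 170 barcodes were over the mitochondrial limit, 275 over and 22 under the gene limits and 805 under the UMI limit. Scrublet (scanpy 1.11.5) called 4 to 9 barcodes a library, too few to count as a working doublet call, so no doublets were removed.

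Counts were summed per library and class and tested with edgeR 4.0.16 (R 4.3.3), by the quasi-likelihood test with TMM scaling, the library as a block and Benjamini-Hochberg adjustment over all genes with a mean of at least 5 counts per profile. The block pairs classes drawn from the same library. Values in CPM are scaled by the TMM library sizes, except in the 20 bins, where the plain UMI total of each bin was used. In counts tested on simulated data, where 200 genes had a log2 change of 1, the test of members against the low-score cells recovered 162 of 197 and made 0 false calls among 12038 genes. Against cells poor in mitotic UMIs it recovered 174 of 198 with 5 false calls, and against cells rich in them 170 of 199 with 2. For members led by cyclin E it recovered 161 of 194 with 6 false calls among 9900 genes. Phases were scored with Seurat 5.3.0, from 37 S and 52 G2M genes. Exact sign-flip tests were computed with numpy 2.4.6, and DESeq2 1.42.0 served as an alternative.

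The members and gene lists were chosen with earlier results of these data known. Named genes are 12 rises and 12 falls, the largest of those called with at least 30 CPM in the higher class and 1 direction in all libraries (5 in further comparisons), fixed cell cycle genes, the 4 largest of each list and the 6 score genes. Others were named after their values were seen: Orc1 to Orc6, Cdc7, Dbf4, Cdk1, Cdk2, Skp2, Cdkn2d, E2f5, Ccnd2, Ccnf, Mdm2, Atr, Fancd2, Npat and Chtf18.
The results of some genes are not reported here.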

Additional observations from a re-analysis of the deposited data

Results flagged for a closer look

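Of 111 quantities checked over the 4 libraries at 37°C, 4 had 1 library apart from the others by Dixon's test, where chance gives about 5%. The log2 difference between members and the low-score cells was -2.88 for Cenpf in replicate 1, against -3.81, -3.76 and -3.80 in the others. For E2f8 it was 1.85 in replicate 3 against 1.30, 1.33 and 1.36, for Rmi2 2.46 in replicate 3 against 2.10, 2.13 and 2.11, and for Myc 0.028 in replicate 3 against 0.25, 0.26 and 0.26.

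Among the 11 genes whose contrast was compared between 39°C and 37°C, 5 differed by the interaction test in edgeR past both limits. The log2 difference was 0.86 for Mcm2, 1.83 for Uhrf1, 4.22 for Ccnb1, 4.62 for Mki67 and 3.26 for Top2a. Temperature and serum cannot be told apart here.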

How the results depend on the processing

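For members against the low-score cells, DESeq2 called 665 genes lower, and with all other cells as the comparison the counts were 499 higher and 666 lower. The other alternatives stayed within 1.5 times of 947 and 1009, and library totals in place of TMM gave 857 and 1097. Leaving out 1 replicate gave 914 to 958 higher and 865 to 958 lower. Of 97 named genes, 75 kept their call under 21 alternatives. Tubb3 turned from 0.17 to -0.021 when cells were chosen after thinning to 5000 UMIs, and the difference of Cdkn1a between temperatures from -0.01 to 0.029 and 0.040 without replicate 3 or 4, with -0.063 to 0.040 over the replicates left out. All 36 alternatives for left-out score genes kept their call. For members led by cyclin E, thinning to 5000 UMIs, chosen after seeing the data, gave 24 higher and 0 lower, and leaving out 1 replicate 46 to 83 higher and 8 to 15 lower. The median number of genes per cell was higher in members in 2 libraries and lower in 2, with a mean difference of -101 (exact permutation p = 0.5). After thinning it was higher in members by a mean of 27.8. Thinning changed the difference in the share of cells from -45.9 to -41.8 percentage points for G1 and from 87.2 to 81.9 for S. The causes of these changes were not tested.

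Classes are paired by library. Without the replicate block, the counts higher and lower were 925 and 949 for members against the low-score cells, 1400 and 1222 against cells poor in mitotic UMIs, 925 and 973 against cells rich in them, 75 and 6 for members led by cyclin E, 1272 and 728 at 39°C, and 602 and 175 for the difference between temperatures.

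With 788 members, genes of few UMIs per profile were not tested, and doublets and free RNA were not removed. The labels do not separate cultures from technical repeats, and 4 pairs cannot reach an exact p under 0.125.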
